A study of Gallus gallus with 16 samples.

Results

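The goblet cell and mucus genes are 8 genes listed under that name, MUC1, MUC2, CLCA2, CREB3L1, SPDEF, AGR2, C1GALT1 and GALNT7, measured in chicken jejunum. They were chosen by symbol, each where the array's annotation gives that symbol alone on a probe set, the group of probes that is read out as a single value. All 8 were found, each on 1 probe set, among 12300 probe sets with a single symbol and 20804 in all. The birds were male broilers sampled on day 21, 4 on each of diets H, F, E and A, and each of the 16 birds gave a separate 1-colour array. The series title names a blend of oregano, thyme, rosemary and star anise oils, and saponins. The labels give neither the additive behind each letter nor a control letter, nor strain, housing or any treatment that all birds shared. All 6 pairs of diets were therefore compared, with the earlier letter subtracted from the later one, to ask which of these genes differed between diets.

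Goblet cells are secretory cells of the intestinal lining that fill granules with mucins, large glycoproteins that swell into mucus on release. A mucin is folded and cross-linked in the endoplasmic reticulum, its protein core is then covered with sugar chains in the Golgi, and transcription factors of the goblet lineage set up this machinery. MUC2 is the gel-forming mucin of the intestine, and MUC1 is a mucin anchored in the cell membrane. SPDEF and CREB3L1 are transcription factors that act in goblet cell maturation in mice, and AGR2 is a protein disulphide isomerase that mice need to make intestinal mucin. GALNT7 belongs to the enzymes that attach N-acetylgalactosamine to the mucin core, and C1GALT1 extends it to the core 1 chain. CLCA2 belongs to the family of calcium-activated chloride channel regulators, in which the related CLCA1 is a secreted goblet cell product in mammals. Whether CLCA2 itself has a part in mucus was not tested here.

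Values are on a scale read as log2, on which a difference of 1 is a doubling. They ran from 0.79 to 14.48 over all probe sets, with lower quartiles of the arrays between 4.45 and 4.61 and medians between 5.94 and 6.10. The mean correlation of an array with the other arrays, across probe sets, lay between 0.970 and 0.980, so no array stood apart by this measure. Markers of enterocytes, the absorptive cells that line the jejunum, were high on these arrays, with 16-bird means of 13.67 for APOA1, 12.99 for RBP2, 12.59 for SI and 12.09 for FABP2. Among the goblet cell markers, MUC2, AGR2, CLCA1 and FCGBP had means of 13.12, 11.55, 11.69 and 12.40, and TFF3, a trefoil peptide of mucus, had 5.24. Levels of different probe sets are not ranked against each other here. In whole tissue, a change in goblet cell number, in RNA per goblet cell or in RNA from other cell types cannot be told apart. The number of arrays, 4 a diet, limits the precision.

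None of the 8 genes passed limma's test over the 4 diets or in any pair after Benjamini-Hochberg adjustment over all 20804 probe sets. Over the 4 diets, 0 of 8 had an adjusted p under 0.05, as had 0% of all probe sets, and 3 of 8 had an unadjusted p under 0.05, against 8.15% of all probe sets. These were C1GALT1, MUC1 and CLCA2, with limma adjusted p of 0.581, 0.605 and 0.609. Their 16-bird means, 5.47, 5.64 and 4.30, lay below the median of every array, the lowest of which was 5.94. Those of the other genes lay above every median. How far background enters the differences of C1GALT1, MUC1 and CLCA2 was not tested. The share of the variance between birds that lay between diets was 55.8% in C1GALT1, 52.2% in MUC1, 47.4% in CLCA2, 39.1% in MUC2, 35.6% in CREB3L1, 27.5% in GALNT7, 15.5% in SPDEF and 2.38% in AGR2, and its median over all probe sets was 21.3%.

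**Figure D1:**
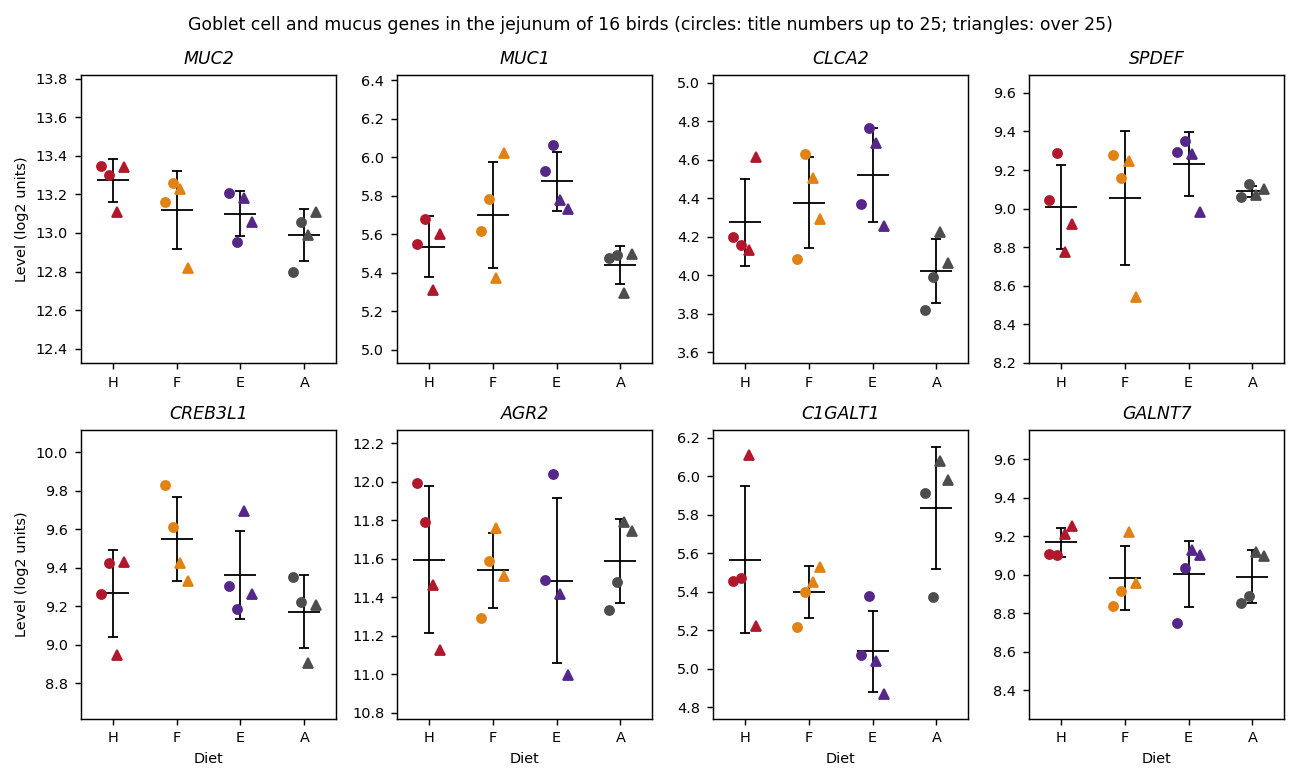
Level of each of the 8 goblet cell and mucus genes in each bird (vertical axes, log2 units, each panel spanning the same range) by diet (horizontal axes, diets H, F, E and A), with the mean and SD of each diet in black. Circles are birds with title numbers up to 25 and triangles those above. Diet E has the lowest mean in C1GALT1, 5.09, and the highest in MUC1, 5.88, and AGR2 spreads widely within diets H and E.

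MUC2, the secreted mucin, was highest on diet H. The 4 birds on diet H had 13.35, 13.30, 13.11 and 13.34, those on diet F 13.16, 13.26, 13.23 and 12.82, those on diet E 13.21, 12.96, 13.18 and 13.06, and those on diet A 12.80, 13.06, 12.99 and 13.11. All diet H birds except replicate 3 exceeded every other bird, and replicate 3 was level with the highest diet A bird. The diet H mean of 13.27 ± 0.11 exceeded the diet A mean of 12.99 ± 0.14 by 0.29 (SD, n = 4 each; SE 0.119, 95% confidence interval 0.03 to 0.54), a 1.22-fold difference with limma adjusted p = 0.376. Diets F and E lay between them at 13.12 ± 0.20 and 13.10 ± 0.12 (SD, n = 4), and no neighbours in this order differed beyond their spread. The difference between diets H and A was 0.39 among birds with lower title numbers and 0.18 among those with higher ones, as set out further on.

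MUC1, the membrane mucin, was highest on diet E. Diet H birds had 5.55, 5.68, 5.31 and 5.60, diet F birds 5.62, 5.78, 5.37 and 6.03, diet E birds 5.93, 6.07, 5.78 and 5.73, and diet A birds 5.48, 5.49, 5.30 and 5.50. Every diet E bird lay above every diet A bird and above every diet H bird, while diet F overlapped all other diets. The diet E mean was 5.88 ± 0.15 against 5.44 ± 0.10 on diet A (SD, n = 4), a difference of 0.44 (SE 0.137, 95% interval 0.14 to 0.73, limma adjusted p = 0.613). Diet H, at 5.54 ± 0.16, lay 0.34 below diet E (difference -0.34, SE 0.137, limma adjusted p = 0.512). The order of means was E, F, H and A, with diet F at 5.70 ± 0.28 (SD, n = 4), and no neighbours in it reached an unadjusted p under 0.05.

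CLCA2 had the same order of diets as MUC1, at levels near the low end of the scale. Diet H birds had 4.20, 4.16, 4.13 and 4.61, diet F birds 4.09, 4.63, 4.50 and 4.29, diet E birds 4.37, 4.76, 4.69 and 4.26, and diet A birds 3.82, 3.99, 4.22 and 4.06. All diet E birds were above all diet A birds, and diets H and F overlapped both. Diet E, at 4.52 ± 0.24, exceeded diet A, at 4.02 ± 0.17, by 0.50 (SD, n = 4; SE 0.157, 95% interval 0.16 to 0.83, limma adjusted p = 0.613). All diet means of CLCA2 except that of diet E were smaller than the lower quartile of each of the 16 arrays, and how far background enters the difference was not tested. Diet F exceeded diet A by 0.35 (SE 0.157, limma adjusted p = 0.726), and MUC1 and CLCA2 share the diet A birds in each of these comparisons.

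The transcription factors did not share the order of either mucin. CREB3L1 had 9.26, 9.42, 8.95 and 9.43 on diet H, 9.83, 9.61, 9.42 and 9.33 on diet F, 9.30, 9.18, 9.69 and 9.26 on diet E, and 9.35, 9.22, 8.91 and 9.21 on diet A. The diet F mean of 9.55 ± 0.22 was highest, 0.38 above the diet A mean of 9.17 ± 0.19 (SD, n = 4; SE 0.155, 95% interval 0.05 to 0.70, limma adjusted p = 0.721), and a single diet F bird lay below the highest diet A bird. Diets E and H, at 9.36 ± 0.23 and 9.27 ± 0.23 (SD, n = 4), stood between them.

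SPDEF was tightly held on diet A and more variable on the other diets. Its diet A birds had 9.06, 9.13, 9.07 and 9.10, with an SD of 0.03, while diet H birds had 9.05, 9.29, 8.77 and 8.92, diet F birds 9.28, 9.16, 9.25 and 8.54, and diet E birds 9.30, 9.35, 9.28 and 8.98. The SDs were 0.22, 0.35 and 0.17 on diets H, F and E, and no test of unequal spread was made. Its widest gap lay between diet H at 9.01 and diet E at 9.23 (difference -0.22, SE 0.158, 95% interval -0.56 to 0.11, limma adjusted p = 0.634). That gap was -0.14 without diet H replicate 3 and -0.32 without diet H replicate 2. The low bird on diet F, replicate 4, was also the lowest diet F bird for MUC2, and without it diet F lay 0.14 above diet A, against -0.03 with it.

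AGR2, the mucin isomerase, had diet means within 0.11 of each other, and its birds spread widely within diets H and E. Diet H birds had 11.996, 11.79, 11.47 and 11.13, diet F birds 11.30, 11.59, 11.76 and 11.51, diet E birds 11.49, 12.04, 11.42 and 10.999, and diet A birds 11.34, 11.48, 11.79 and 11.75. The highest and the lowest of the 16 birds were both on diet E. Its SD within diets was 0.32, the highest of the 8 genes, whose lowest was 0.14, while the median over all probe sets was 0.24. The 6 differences lay between -0.10 and 0.11, with a 95% interval of -0.35 to 0.56 for diet H minus diet E.

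C1GALT1, which makes the core 1 chain, had the largest difference of the 8 genes. Diet H birds had 5.45, 5.47, 6.11 and 5.22, diet F birds 5.21, 5.40, 5.45 and 5.53, diet E birds 5.07, 5.38, 5.04 and 4.87, and diet A birds 5.91, 5.37, 6.08 and 5.98. A single diet A bird, replicate 2, lay within the range of diet E, where the highest bird had 5.38. The diet E mean of 5.09 ± 0.21 was 0.75 below the diet A mean of 5.84 ± 0.32 (SD, n = 4; difference -0.75, SE 0.189, 95% interval -1.15 to -0.34), a ratio of 0.596. The limma p of that difference was 0.00125, and its adjusted p was 0.613. Diet F lay below diet A as well (difference -0.44, SE 0.189, limma adjusted p = 0.725), and diet H lay above diet E (difference 0.48, SE 0.189, limma adjusted p = 0.512). The highest bird of all, diet H replicate 3, carried much of this last gap, which was 0.29 without it.

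GALNT7, which acts before C1GALT1 on the mucin core, did not show that drop on diet E. Diet H birds had 9.11, 9.10, 9.21 and 9.25, diet F birds 8.84, 8.91, 9.22 and 8.96, diet E birds 8.75, 9.03, 9.13 and 9.10, and diet A birds 8.85, 8.89, 9.12 and 9.10. Diet H was highest at 9.17 ± 0.08, and diets F, E and A lay together at 8.98 ± 0.17, 9.003 ± 0.17 and 8.99 ± 0.14 (SD, n = 4). The widest gap, diet H minus diet F, was 0.18 (SE 0.117, 95% interval -0.06 to 0.43, limma adjusted p = 0.842).

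**Figure D2:**
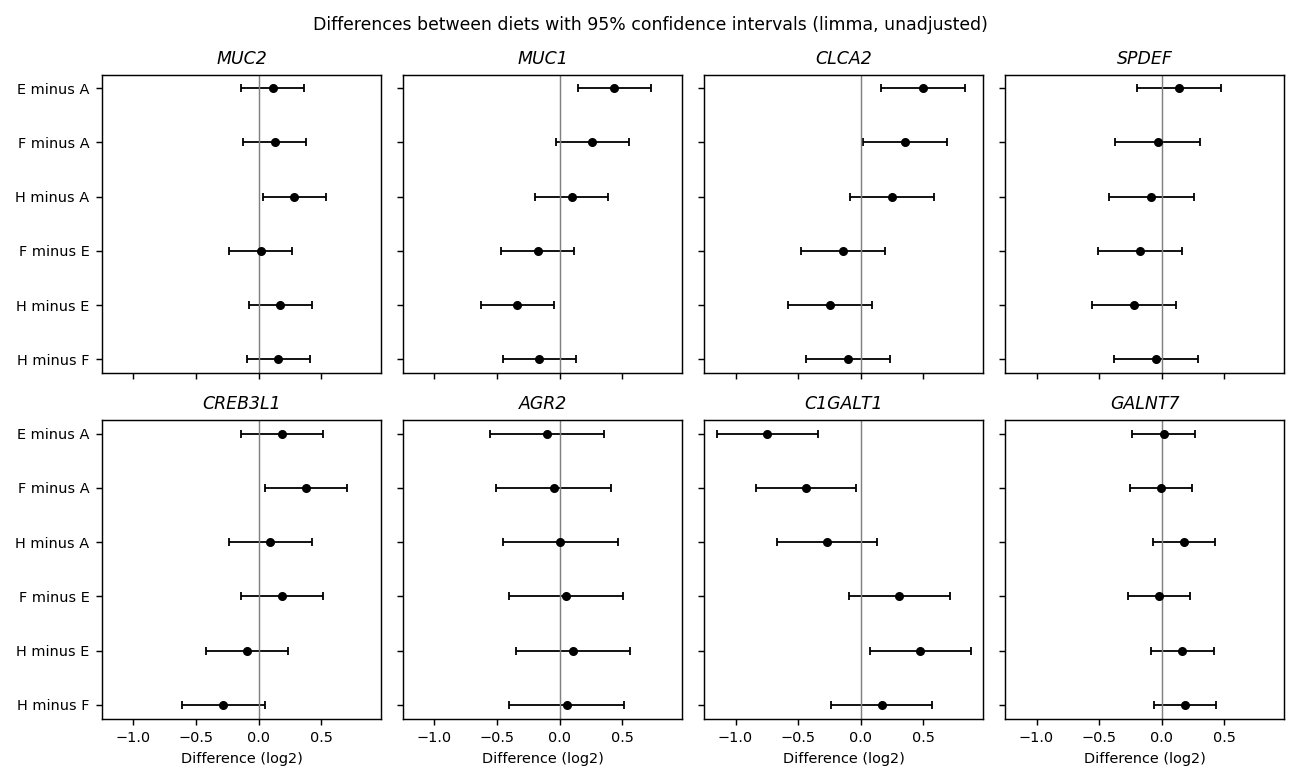
Difference between diets in log2 units (horizontal axes) with its 95% confidence interval for each of the 6 pairs of diets (vertical axes) and each gene, later letter minus earlier letter. The interval of C1GALT1 for diet E minus diet A, -1.15 to -0.34, is the one farthest from 0, and all intervals of AGR2, SPDEF and GALNT7 cross 0.

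Counted over the pairs, 9 of the 48 differences of the 8 genes had an unadjusted p under 0.05 (18.8%), against 7.30% of the differences of all probe sets. None had an adjusted p under 0.05. The pairs share birds, so the 48 are not independent, and C1GALT1, MUC1 and CLCA2 were each counted more than once. For diet E minus diet A, 3 of 8 genes had an unadjusted p under 0.05 against 7.71% of all probe sets. MUC1 and CLCA2 were the higher ones, against 4.74%, and C1GALT1 the lower one on diet E, against 2.97%. In this pair 2 of 8 genes had every diet E bird above every diet A bird, against 2.49% of all probe sets. For diet F minus diet A the count was 3 of 8, against 6.83%, with CLCA2 and CREB3L1 higher, against 3.78%, and C1GALT1 lower on diet F, against 3.05%. For diet H minus diet A it was 1 of 8, MUC2, against 11.5% in both directions and 5.62% higher. For diet H minus diet E it was 2 of 8, against 9.52%, with C1GALT1 higher, against 3.86%, and MUC1 lower on diet H, against 5.66%, and MUC1 alone had every diet H bird below every diet E bird, against 3.23% of all probe sets. For diet F minus diet E and diet H minus diet F it was 0 of 8, against 2.95% and 5.27%. After adjustment limma called 1 probe set between diets H and A (0.00481%), which was none of these genes, and 0% in each other pair. The median difference of the 8 genes was 0.13, 0.06 and 0.10 for diets E, F and H minus diet A, against 0.03, 0.02 and 0.00 over all probe sets. Single birds moved these medians, between 0.08 and 0.17 for diet E, between 0.0036 without diet F replicate 3 and 0.14 without diet F replicate 4 for diet F, and between 0.045 without diet H replicate 2 and 0.17 without diet H replicate 3 for diet H. The median for diet F was 0.17 in the lower title range and -0.02 in the upper one, so its sign is not settled. These 3 comparisons share the diet A birds.

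Numbers in the sample titles fall into a lower range, up to 25, and an upper range, with 2 birds of every diet in each, and the labels do not say what the numbers stand for. In each range the 2 birds of a diet have neighbouring numbers. Fitted as a random block, such neighbours had a correlation of 0.17 over all probe sets. The SEs and p-values of the main fit treat all birds as independent. C1GALT1 was lower on diet E than on diet A in both ranges, by a difference of -0.42 in the lower and -1.08 in the upper one. MUC1 kept its direction between these diets too, with 0.51 and 0.36, as did CLCA2 with 0.66 and 0.33. AGR2 did not: diet E minus diet A was 0.36 in the lower range and -0.56 in the upper one, and diet H minus diet A was 0.49 and -0.47. CREB3L1 lay above diet A on diet F in both, with 0.43 and 0.32. With 2 birds a diet in a range, these values were not tested. Over all diets, the upper range minus the lower was 0.20 in GALNT7, -0.21 in SPDEF and -0.15 in AGR2, also not tested. The widest diet gaps of these genes were 0.18, -0.22 and 0.11. In the other genes the shift between ranges lay between -0.12 and 0.13.

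The 8 genes did not vary as a block from bird to bird. Over the 16 birds, the 28 correlations between pairs of them lay between -0.60 and 0.51, and none had an adjusted p under 0.05. The adjustment ran over 156 correlations, these 28 and 128 between a gene and the mean of a gene list. The lowest was between CREB3L1 and C1GALT1 (Pearson r = -0.60, Spearman rho = -0.48, permutation p = 0.0137 and 0.0610, adjusted p = 0.165 and 0.328). It was -0.62 within diets, -0.49 without the 2 birds farthest from the median of CREB3L1, and -0.18 and -0.78 in the lower and upper title range. MUC1 and C1GALT1 followed (Pearson r = -0.59, Spearman rho = -0.55, permutation p = 0.0164 and 0.0292, adjusted p = 0.168 and 0.228), but within diets their correlation was -0.13. It was -0.78 without the 2 birds farthest from the median of MUC1, and -0.51 and -0.62 in the title ranges. The highest was between MUC1 and CLCA2 (Pearson r = 0.51, Spearman rho = 0.59, permutation p = 0.0447 and 0.0184, adjusted p = 0.246 and 0.197). Within diets that correlation was 0.07. MUC2 and SPDEF had an r of 0.36 over the 16 birds (Spearman rho = 0.19) and 0.65 within diets. Their r was -0.03 without the 2 birds farthest from the median of MUC2, and 0.07 and 0.57 in the lower and upper title range. Whether single pairs vary together is thus not settled.

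Each gene was closest to genes outside the group, where nearly all of the genes searched lie. AGR2 was most like HSPA5, the main chaperone of the endoplasmic reticulum (r = 0.92 over 16 birds, 0.93 within diets), then PDIA3, another disulphide isomerase (r = 0.89), and PSMD1, a proteasome subunit (r = 0.88), among 11527 other genes. HSPA5 had 12.44, 12.23, 11.70 and 11.07 on diet H, 11.35, 11.71, 11.98 and 11.87 on diet F, 12.004, 12.40, 11.29 and 10.85 on diet E, and 11.65, 11.48, 11.82 and 11.88 on diet A. The birds that were highest and lowest for AGR2 on diets H, F and E were thus the same birds for HSPA5. The most like genes of MUC2 were CAB39L, PPP1R42 and CAPN8 (r = 0.89, 0.87 and 0.87), and CAPN8 is a calpain of mucus cells of the stomach in mice. C1GALT1 was closest to FAR1, a fatty acyl-CoA reductase, RPF2, a ribosome assembly factor, and NDC80, a kinetochore protein (r = 0.90, 0.89 and 0.88). GALNT7 was closest to TM9SF3, KATNBL1 and SH3GLB1 (r = 0.91, 0.91 and 0.90).

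MUC1 was closest to FAM20CL, EVX1 and MYADML2 (r = 0.90, 0.89 and 0.89), CREB3L1 to RHOU, USP36 and LOC424588 (r = 0.87, 0.86 and 0.86), SPDEF to VENTX, RGS2 and HES4 (r = 0.81, 0.81 and 0.78), and CLCA2 to PTPRZ1, INTS4 and TMEM18 (r = 0.83, 0.78 and 0.74). All of these are the highest of 11527 correlations, taken over the same 16 arrays, and carry no test.

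Set against gene lists, 3 of the 128 correlations had an adjusted p under 0.05 by Pearson's r. AGR2 followed the mean of 32 other genes of secretory protein folding (Pearson r = 0.92, Spearman rho = 0.90, permutation adjusted p = 0.00156 and 0.00234). The correlation was 0.92 within diets, 0.87 without the 2 birds farthest from the median of AGR2, and 0.93 and 0.90 in the lower and upper title range. Of the 32 genes, 21 had an r over 0.5 with AGR2, against 6.81% of all genes.

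GALNT7 followed the mean of 15 enteroendocrine markers, genes of the hormone-secreting cells of the gut (Pearson r = 0.85, Spearman rho = 0.87, permutation adjusted p = 0.00390 and 0.00234). It was 0.81 within diets, 0.82 without the 2 farthest birds, and 0.86 and 0.92 in the title ranges, and 10 of the 15 markers had an r over 0.5, against 15.3% of all genes. MUC2 followed the mean of 12 other mucus and granule proteins (Pearson r = 0.77, Spearman rho = 0.72, permutation adjusted p = 0.0114 and 0.0772), with 0.69 within diets, 0.72 without the 2 farthest birds, and 0.85 and 0.71 in the title ranges. Diet A replicate 1, lowest of all birds for MUC2, was also lowest for that list and is among the 2 left out. The closest gene of that list was FCGBP, a mucus protein that binds to the mucin network (r = 0.85), and 4 of the 12 had an r over 0.5, against 7.11% of all genes. CLCA2 had an r of 0.66 with the same list (Spearman rho = 0.69), and C1GALT1 one of -0.51 (Spearman rho = -0.41). SPDEF had an r of 0.65 with other goblet cell transcription factors (Spearman rho = 0.70). GALNT7 had an r of 0.66 with other genes of O-linked chains (Spearman rho = 0.73). By permutation, the adjusted p of these 4 by Pearson's r was 0.105 or more.

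**Figure D3:**
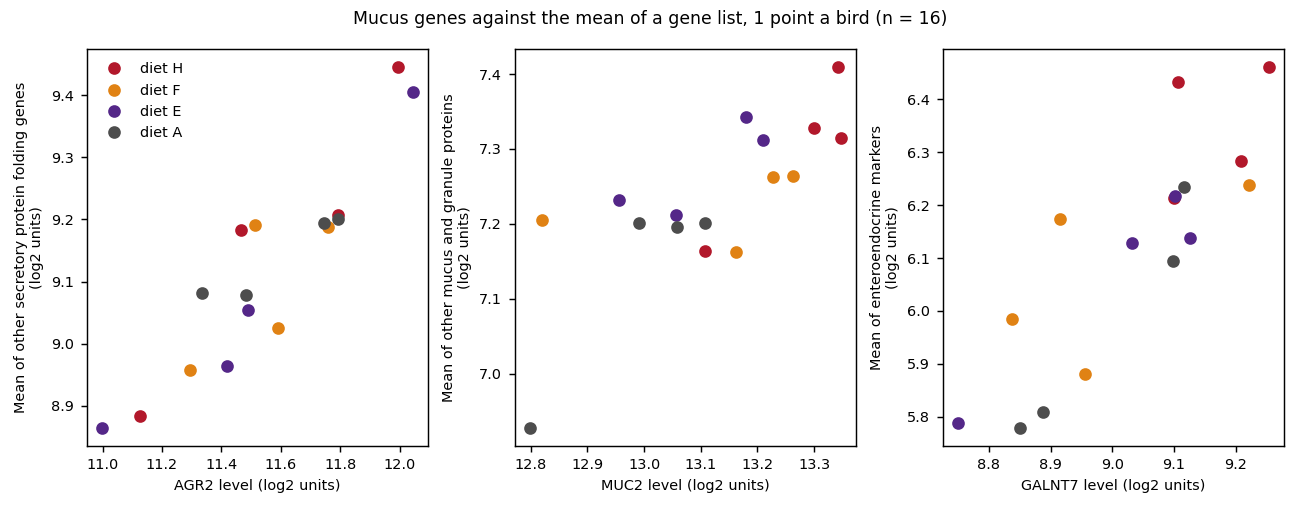
Level of AGR2, MUC2 and GALNT7 (horizontal axes, log2 units) against the mean level of a gene list in the same bird (vertical axes, log2 units), 16 birds coloured by diet. Birds with more AGR2 have higher means of the folding genes, with r = 0.92, and the diets overlap along the line.

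Other genes of mucus formation were read from lists by role, and limma called none of them in any pair. Between diets H and A, an unadjusted p under 0.05 was reached by 1 of 5 other mucins and 2 of 12 mucus and granule proteins, all higher on diet H. It was also reached by 5 of 33 genes listed for O-linked chains, all higher. Of 14 transcription factors and signalling genes, 1 higher and 1 lower reached it. Of 32 folding genes, 2 higher and 1 lower reached it. Over all probe sets the share was 11.5% in both directions, 5.62% higher and 5.91% lower. For diet E minus diet A, 2 of 12 granule proteins, both higher, and 5 higher and 1 lower of 33 O-linked chain genes reached it. The share of all probe sets was 7.71%. For diet F minus diet A, it was reached by 2 of 12 granule proteins, both higher, and 2 higher and 1 lower of 33 O-linked chain genes. So did 1 of 32 folding genes, lower, and the share was 6.83%. No gene of the other mucus lists reached it in these pairs. Of 16 other mucins 5 were measured, and MUC13, a membrane mucin of the intestine, had the smallest F test p (0.0256, limma adjusted p = 0.597). It had 12.01, 11.91, 11.94 and 12.11 on diet H, 11.42, 11.72, 11.91 and 11.75 on diet F, 11.40, 11.33, 11.59 and 11.69 on diet E, and 10.71, 11.17, 11.70 and 11.80 on diet A. Every diet H bird lay above every diet A, diet E and diet F bird, as in 2.89%, 2.1% and 1.49% of all probe sets. Against diet F this rests on 11.908 in diet H replicate 2 and 11.905 in diet F replicate 3. The difference between diets H and A was 0.65 (SE 0.195, limma adjusted p = 0.229). That difference was 1.02 in the lower title range and 0.27 in the upper one. MUC5B and MUC4 differed by -0.21 and 0.05 between diets H and A, and EMCN, an endothelial sialomucin, by -0.55.

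Of 12 measured mucus and granule proteins, FCGBP had the smallest F test p (0.0266, limma adjusted p = 0.600). Diet H birds had 12.59, 12.69, 12.29 and 13.21, diet F birds 12.46, 12.64, 12.66 and 12.12, diet E birds 12.45, 12.15, 12.64 and 12.60, and diet A birds 11.48, 11.96, 12.07 and 12.40. FCGBP was thus lowest on diet A in the mean, by 0.72, 0.49 and 0.48 against diets H, F and E, with a single diet A bird inside the range of diet H (limma adjusted p = 0.225 for diet H). TFF3 exceeded diet A by 0.45 on diet E and 0.39 on diet F, and BCAS1 exceeded it by 0.30 on diet H. SYTL2, a granule gene, differed from diet A by 0.03 on diet E and -0.30 on diet F. CLCA1 exceeded diet A by 0.62 on diet H, with an F test p of 0.562. The list had 9, 8 and 8 of 12 genes higher on diets E, F and H than on diet A, where 54.8%, 55.1% and 50.2% of all probe sets were higher.

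Among 33 measured genes listed for O-linked chains, mostly enzymes, B3GNT2, which builds N-acetyllactosamine chains, had the smallest F test p (0.00425, limma adjusted p = 0.581). Its birds had 9.05, 9.42, 8.87 and 9.55 on diet H, 8.97, 8.96, 9.16 and 8.66 on diet F, 8.69, 8.39, 9.01 and 8.96 on diet E, and 8.05, 7.92, 8.51 and 8.78 on diet A. All diet H birds were above all diet A birds, as in 2.89% of all probe sets. The difference was 0.91 (SE 0.208, limma adjusted p = 0.197), and the means ran in the order H, F, E and A. GALNT10, an enzyme of the same step as GALNT7, exceeded diet A by 0.41 on diet E, 0.38 on diet F and 0.38 on diet H. GALNT18 and GALNT9 exceeded diet A by 0.34 and 0.37 on diet E, while GALNT18 was 0.19 below it on diet H (difference -0.19). The list as a whole was split, with 19, 17 and 18 of 33 genes higher on diets E, F and H than on diet A and medians of 0.06, 0.00 and 0.05.

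Of 14 measured transcription factors and signalling genes of the goblet lineage, GFI1, a repressor that favours goblet over endocrine fate in mice, had the smallest F test p (0.0142, limma adjusted p = 0.582). It averaged 6.55 ± 0.08 on diet H, 6.96 ± 0.14 on diet F, 6.80 ± 0.11 on diet E and 6.88 ± 0.18 on diet A (SD, n = 4). ELF3, an epithelial factor, was 0.36 higher on diet H than on diet A, the receptor NOTCH2 was at -0.06 and its ligand DLL1 at -0.23. Of the 32 folding genes, 8, 13 and 19 were higher on diets E, F and H than on diet A, with medians of -0.09, -0.03 and 0.06. DNAJC3, a co-chaperone, was 0.25 above diet A on diet H, and the stress sensor ERN1 was at -0.03 there and at -0.28 on diet F. DNAJC10 and DNAJB9, both chaperone partners, were 0.31 and 0.68 above diet A on diet H.

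**Figure D4:**
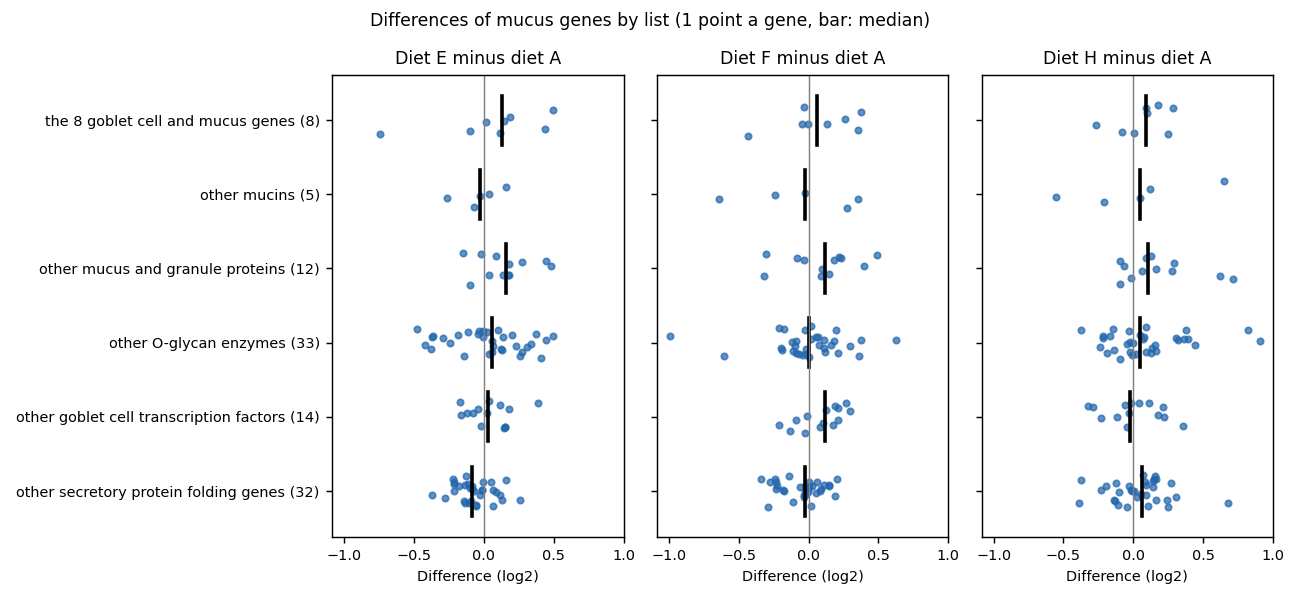
Difference from diet A in log2 units (horizontal axes) for each measured gene of 6 lists (vertical axis, number of genes in brackets), with panels for diets E, F and H and the median of each list as a black bar. Medians lie within 0.16 of 0 in every list, and the low point of the 8 genes on diet E is C1GALT1 at -0.75.

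Markers of other cell types were read in the same birds, and limma called none of those of the crypt, fibroblast, enteroendocrine and enterocyte lists in any pair. Between diets H and A, an unadjusted p under 0.05 was reached by 8 of 16 crypt markers and 3 of 12 fibroblast markers. All of these were lower on diet H, against 5.91% of all probe sets. It was also reached by 7 of 15 enteroendocrine and 3 of 13 enterocyte markers, all higher, against 5.62%. The 4 list means below were not tested between diets. The mean of 16 measured crypt and proliferation markers was 6.11 ± 0.72 on diet H (5.36 to 7.10), 6.18 ± 0.23 on diet F (5.87 to 6.37), 6.32 ± 0.69 on diet E (5.53 to 7.20) and 6.96 ± 0.29 on diet A (6.55 to 7.20; SD, n = 4). C1GALT1 had an r of 0.67 with that mean (Spearman rho = 0.54, permutation adjusted p = 0.105 and 0.231), which was 0.74 within diets, 0.54 without the 2 birds farthest from its median, and 0.44 and 0.87 in the title ranges. MUC2 had an r of -0.62 with it (Spearman rho = -0.64, permutation adjusted p = 0.137 and 0.126), -0.49 within diets, -0.68 without the 2 farthest birds, and -0.88 and -0.41 in the title ranges. OLFM4 and SLC12A2 led that list by F test p (0.0164 and 0.0424), at -1.56 and -0.40 on diet E and -2.79 and -0.69 on diet H relative to diet A. Correlations of similar size were not limited to crypt markers. MUC2 had an r of -0.66 with B and plasma cell markers, 0.60 with enteroendocrine, 0.59 with enterocyte and -0.58 with myeloid markers. C1GALT1 had an r of 0.64 with T and NK lymphocyte markers (Spearman rho = 0.67), and 0.79 within diets. MUC1 had an r of 0.66 with erythrocyte markers (Spearman rho = 0.59) and 0.54 with pancreas markers (Spearman rho = 0.61).

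The mean of 12 fibroblast markers was 5.84 ± 0.82 on diet H (5.29 to 7.03), 5.76 ± 0.56 on diet F (5.37 to 6.59), 6.32 ± 0.89 on diet E (5.25 to 7.43) and 6.66 ± 0.54 on diet A (5.93 to 7.20; SD, n = 4). The mean of 15 enteroendocrine markers was 6.35 ± 0.12 on diet H (6.21 to 6.46), 6.07 ± 0.17 on diet F (5.88 to 6.24), 6.07 ± 0.19 on diet E (5.79 to 6.22) and 5.98 ± 0.22 on diet A (5.78 to 6.23; SD, n = 4). That of 13 enterocyte markers was 12.24 ± 0.11 on diet H (12.12 to 12.39), 12.13 ± 0.08 on diet F (12.07 to 12.24), 12.17 ± 0.24 on diet E (11.82 to 12.35) and 11.99 ± 0.18 on diet A (11.79 to 12.19; SD, n = 4). The part of these cell types in the differences of the mucus genes was not tested.

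Diet H replicate 3 held the lowest diet H value of MUC1, MUC2, CLCA2, CREB3L1 and SPDEF and the highest of C1GALT1. It also held the highest diet H means of the crypt and the fibroblast markers, 7.10 and 7.03. Without it, MUC2 on diet H exceeded diet A by 0.34 and C1GALT1 lay below diet A by a difference of -0.45, against 0.29 and -0.27 with it. The difference of C1GALT1 was -0.16 without diet H replicate 4. That of MUC2 was 0.22 without diet A replicate 1, with a limma unadjusted p of 0.0963.

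**Figure D5:**
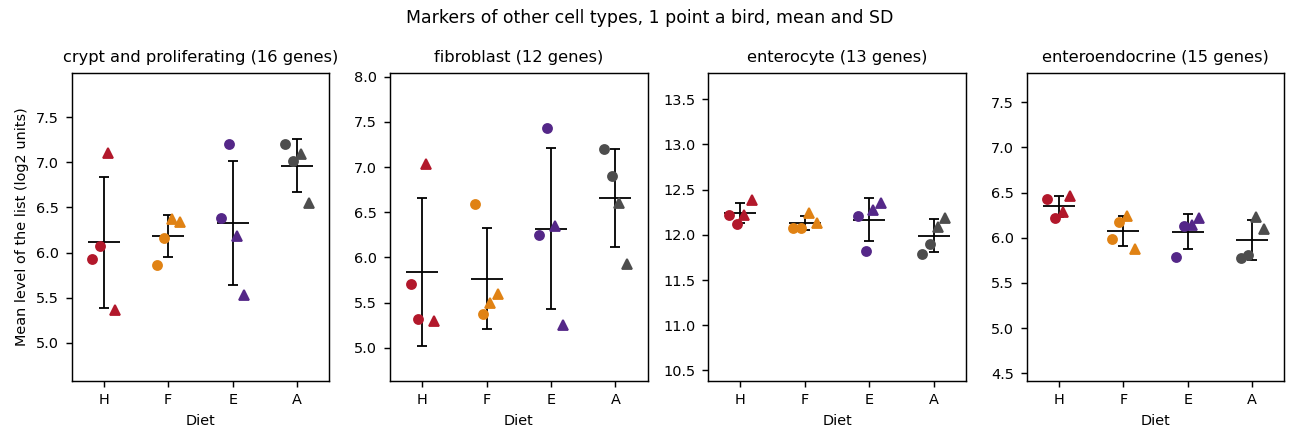
Mean level of 4 marker lists (vertical axes, log2 units, each panel spanning the same range) in each bird by diet (horizontal axes), with the mean and SD of each diet in black; circles are birds with title numbers up to 25 and triangles those above. Crypt and proliferation markers average 6.96 on diet A and 6.11 to 6.32 on the other diets, and single birds of diets H and E reach the diet A level.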

How the data were processed

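Total RNA of the 16 jejunum samples was transcribed to DNA, labelled with biotin and hybridised to 1-colour Affymetrix arrays, per the labels' protocols, and GCOS 1.1.1 is named per the submitters' processing notes. The deposited values were read as log2 intensities from their range, and the quartiles of the arrays are nearly equal. How probes were summarized, which normalization was used and which logarithm was taken is not stated in the labels, so fold changes rest on that reading.

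Genes were named through the platform annotation, with a single symbol for 12300 of 20804 probe sets, several for 256 and none in that table for 8248. Where several probe sets carried a symbol, the brightest of them, averaged over the 16 arrays, stood for the gene. The Entrez number of MUC2 is not in that table, and the other 7 genes had the number that RefSeq (GRCg7b) gives for their symbol. Among the list genes, MUC4, MUC5B, MUC13, SPINK4, STX3, NOTCH1, ERN1, MKI67 and SCG2 could not be matched to RefSeq by Entrez number either. They rest on the platform's symbol alone.

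R 4.3.3 with limma 3.58.1 (lmFit, eBayes) fitted a mean per diet to all 16 arrays, without covariates, and p-values were adjusted across the 20804 probe sets and called under 0.05. Arrays are separate birds, and whether birds shared pens is not stated. Correlations used 100000 permutations (Python 3.11.15). The procedure was tested on simulated data. Alternatives were other scalings, a filter on low values, title numbers in the fit, and arrays left out.

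All 8 genes are always described, with the up to 4 genes of smallest F test p per mucus list and the 3 most similar genes per member. For marker lists the rule was up to 2 genes, and these are named for the crypt list only. Lists of lymphocyte, myeloid, smooth muscle, endothelial, erythrocyte and pancreas markers were also read, and their differences between diets are not described. Genes outside this rule (CLCA1, the tissue markers APOA1, RBP2, SI and FABP2) come from the lists, and they and the other genes given bird by bird were chosen after values were seen. The genes and lists were chosen with earlier results of these data known.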

Additional observations from a re-analysis of the deposited data

Results flagged for a closer look

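In 3 of 32 combinations of a gene and a diet, a single bird lay far from the other 3 by Dixon's ratio at its 95% critical value, a limit that chance passes in about 1 in 20 groups. The MUC1 level of diet A replicate 3 was 5.30, below the other diet A birds, which lay between 5.48 and 5.50. The CLCA2 level of diet H replicate 4 was 4.61, above the other diet H birds, which lay between 4.13 and 4.20. The SPDEF level of diet F replicate 4 was 8.54, below the other diet F birds, which lay between 9.16 and 9.28.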

How the results depend on the processing

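None of the 8 genes passed limma's adjusted threshold in a pair under 27 other settings, or over the 4 diets under the 26 of them that keep all diets. The widest difference of each gene kept its direction in 213 of 215 recalculations. The exceptions were AGR2 for diet H minus diet E, at -0.055 without diet E replicate 4 and -0.025 without diet H replicate 1, against 0.11. Its highest value with a bird left out was 0.29. Many of the 215 could not change a difference, so the count overstates its stability. Leaving out a bird of neither diet, filtering low values or fitting only the diets compared leaves both diet means as they were. CLCA2 was not among the 7 genes kept by the filter on low values. Each gene had 1 probe set, so averaging probe sets changed none of their values. C1GALT1 on diet E minus diet A ranged from -0.90 to -0.66 with single birds left out. The count of all probe sets called over the 4 diets was 0, and 1 with median centring or without the lowest 25% of probe sets. Between diets H and A it was 1, against 111 with the title range as a block and 0 with only these diets in the fit. Leaving out single birds gave 0 to 2 there, 0 to 1 for diet E minus diet A, 0 to 2 for diet F minus diet A, 0 to 10 for diet F minus diet E and 0 to 2 for diet H minus diet E. The cause was not tested. No paired analysis was possible because the labels carry no replicate numbers shared between diets. Without background readings, signal over background is unknown.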
